A study of Homo sapiens with 6 samples.

Results

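Acute-phase and antimicrobial secreted proteins were followed through 10 genes, LCN2, SAA1, SAA2, C3, PTX3, SLPI, PI3, S100A8, S100A9 and HP, out of 54259 gene symbols in the deposited count table. The 10 symbols were selected on the difference between MDA-MB-231 shBry and MDA-MB-231 shNC cells in these same libraries, so their group differences are given as descriptions, with no test. Enough reads for a fit were counted for 6 of the 10 (LCN2, SAA1, SAA2, C3, SLPI and PTX3), among 15277 genes tested in all. LCN2, C3, SLPI, SAA1, SAA2 and PTX3 had higher normalised read counts in every shBry library than in any shNC library. S100A8, S100A9, HP and PI3 had between 0 and 13 reads over all libraries.

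MDA-MB-231 is a human breast cancer line of mesenchymal, triple-negative type. Total RNA was sequenced from 3 libraries of MDA-MB-231 cells with a short hairpin RNA against brachyury (shBry) and 3 libraries of the same line with the control hairpin (shNC), to look for genes and pathways downstream of the T-box transcription factor brachyury. No drug, time course or other allele separates the groups in the labels. The hairpin sequence used in this line, and whether each line was a clone or a pool, are not given in the sources used here, and nothing states that the 3 libraries of a group came from separate cultures, so p-values measure only the spread between these libraries.

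The libraries held 19319411 to 22985371 reads counted on genes. Brachyury itself (symbol T) had 0 reads in all 6 libraries, so the knockdown could not be checked from these counts. The markers of the line were present, with AXL, CAV1, CD44, MSN and VIM summing to 6510 to 6740 CPM (reads scaled to library size) in shBry and 7520 to 7850 in shNC, with CAV1 called lower in shBry (log2 fold change -1.11). The 8 luminal breast markers summed to 559 to 699 CPM in shBry and 1340 to 1450 in shNC. Most of this came from KRT8 (means 239 CPM in shBry and 890 in shNC) and KRT18 (372 and 508), whereas ESR1, PGR and CDH1 had 2, 1 and 4 reads in all. Of the 8 luminal genes KRT8 was called lower (-1.90) and EPCAM higher (1.47). Between the groups 32.4% of the tested genes were called different, 17.1% higher and 15.2% lower in shBry, where a call needed a change of more than 1.5 times either way with an adjusted p under 0.05. In 30.6% of the tested genes all shBry values lay above all shNC values, and in 28.9% all lay below.

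Acute-phase proteins are plasma proteins whose production rises during infection or injury, mainly in the liver under interleukin 6 and interleukin 1, and several are also made by epithelial and tumour cells. Lipocalin 2 binds iron-carrying bacterial siderophores, serum amyloid A proteins bind lipids and recruit leukocytes, and pentraxin 3 and complement C3 tag microbes for uptake. SLPI and elafin, the product of PI3, inhibit neutrophil serine proteases, calprotectin (S100A8 with S100A9) withholds metal ions from microbes, and haptoglobin binds free haemoglobin. Their genes are textbook targets of NF-kappa-B, C/EBP and STAT3 transcription factors.

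The sequences around the transcription start are shown for LCN2, PTX3, S100A8 and S100A9, the 4 of the 10 genes with a promoter window in the sources used here. No window was at hand for SAA1, SAA2, C3, SLPI, PI3 or HP, so motifs were not searched in them. LCN2 and PTX3 were the most abundant of the genes per length in shBry cells, while S100A8 and S100A9 were at or near 0 reads. Each is the RefSeq promoter window on GRCh38.p14, from 250 bases before to 50 bases after the start, 5′ to 3′ on the strand of the gene. Capitals mark matches, on either strand, to the NF-kappa-B consensus, the C/EBP motif TTGCNNAA, the STAT motif TTCNNNGAA or the AP-1 motif TGANTCA.
LCN2, chr9:128149203-128149502, plus strand: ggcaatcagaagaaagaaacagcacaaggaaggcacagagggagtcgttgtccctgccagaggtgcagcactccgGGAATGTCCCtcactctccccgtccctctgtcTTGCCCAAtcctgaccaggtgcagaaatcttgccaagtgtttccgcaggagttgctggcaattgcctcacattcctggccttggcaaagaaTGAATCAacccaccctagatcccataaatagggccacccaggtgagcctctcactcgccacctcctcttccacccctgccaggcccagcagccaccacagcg
PTX3, chr3:157436600-157436899, plus strand: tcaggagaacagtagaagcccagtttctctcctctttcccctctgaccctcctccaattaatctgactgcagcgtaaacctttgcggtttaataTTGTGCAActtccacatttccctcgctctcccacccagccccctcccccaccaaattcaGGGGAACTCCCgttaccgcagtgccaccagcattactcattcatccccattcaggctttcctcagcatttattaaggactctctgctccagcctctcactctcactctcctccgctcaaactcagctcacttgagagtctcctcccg
S100A8, chr1:153391139-153391438, minus strand: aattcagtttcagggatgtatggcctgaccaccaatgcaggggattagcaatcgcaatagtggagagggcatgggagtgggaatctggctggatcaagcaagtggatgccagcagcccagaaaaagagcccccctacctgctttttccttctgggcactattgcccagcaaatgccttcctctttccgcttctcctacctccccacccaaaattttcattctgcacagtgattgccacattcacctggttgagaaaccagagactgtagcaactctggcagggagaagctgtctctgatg
S100A9, chr1:153357604-153357903, plus strand: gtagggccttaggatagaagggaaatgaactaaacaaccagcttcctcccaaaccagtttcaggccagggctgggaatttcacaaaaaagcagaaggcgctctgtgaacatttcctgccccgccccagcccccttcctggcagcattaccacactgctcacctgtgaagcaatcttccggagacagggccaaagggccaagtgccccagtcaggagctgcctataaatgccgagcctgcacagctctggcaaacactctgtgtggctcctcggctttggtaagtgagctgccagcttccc

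The LCN2 window held an NF-kappa-B match (GGAATGTCCC, starting at position -175 from the start site), a C/EBP match (TTGCCCAA, at -143) and an AP-1 match (TGAATCA, at -52). The PTX3 window held NF-kappa-B matches that overlap each other at -97 and -96 and a C/EBP match (TTGTGCAA, at -156). The S100A8 and S100A9 windows held none of the 4 motifs. Among 27305 RefSeq promoter windows of the same length, 10.8% held the NF-kappa-B motif, 10.6% the C/EBP motif, 7.88% the STAT motif and 7.76% the AP-1 motif. A match is a description of letters and not of a bound site, and a window with no match says only that these letters are not in it.

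LCN2 (lipocalin 2, chr9:128149071-128153455, plus strand, GENCODE 29 on GRCh38) showed the largest contrast of the 10. It was at 58.7, 51.9 and 54.3 CPM in shBry replicates 1, 2 and 3 and at 0.0458, 0.0472 and 0.15 CPM in shNC replicates 1, 2 and 3. The groups lay far apart, and the shNC values rest on 1, 1 and 3 reads against 1092, 1233 and 1226 reads in shBry. The mean was 55.0 ± 3.46 CPM (SD, n = 3) in shBry and 0.081 ± 0.0598 in shNC. Since shNC held only 5 LCN2 reads in all, the pooled ratio was 689 with an exact 95% interval of 295 to 2120, which covers counting error only. The fitted log2 fold change was 9.33 (SE 0.23), the highest of all tested genes, and it was 10.01 without shNC replicate 3, the library with 3 of the 5 reads. Per kilobase of exon, with the exons of all annotated transcripts merged, the shBry level was 34.4 CPM.

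PTX3 (pentraxin 3, chr3:157436789-157443628, plus strand) had the highest level of the 10 genes in shNC cells. Its values were 84.3, 71.9 and 77.4 CPM in shBry and 39.8, 34.6 and 40.1 CPM in shNC. All shBry libraries were above all shNC libraries. The means were 77.9 ± 6.25 and 38.2 ± 3.11 CPM (SD, n = 3), the log2 fold change was 1.03 (SE 0.10), and 8.04% of all tested genes had a larger one. Of the exon bases of PTX3, 3.66% are overlapped by VEPH1 on the opposite strand, and the strand setting of the counting is not given in the sources used here.

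C3, complement component 3 (chr19:6677704-6730562, minus strand), the central protein of all complement pathways, had 21.5, 25.2 and 23.7 CPM in shBry and 2.15, 2.79 and 1.40 CPM in shNC. The shBry libraries were close to each other, while the lowest shNC library, replicate 3, stood at 28 reads against 47 and 59. The means were 23.5 ± 1.87 and 2.11 ± 0.694 CPM (SD, n = 3), with a log2 fold change of 3.46 (SE 0.20) and a pooled ratio of 11.1 (exact 95% interval 9.30 to 13.3, for counting error only). In exon length, merged over all annotated transcripts, C3 is the longest of the 10 genes (8.33 kb). Per kilobase it was at 2.82 CPM in shBry and 0.254 in shNC.

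SAA1 (chr11:18266174-18269977, plus strand) encodes a serum amyloid A protein of the inducible kind and was at 2.21, 3.45 and 3.14 CPM in shBry and 0.504, 0.708 and 0.701 CPM in shNC. SAA2 (chr11:18239223-18248643, minus strand), its close copy, was at 0.753, 1.56 and 0.93 CPM in shBry and 0.137, 0.189 and 0 CPM in shNC. In both genes every shBry library was above every shNC library, and shBry replicate 2 was the highest. The log2 fold change was 2.20 (SE 0.30) for SAA1 and 3.24 (SE 0.61) for SAA2.

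Reads from stretches that SAA1 and SAA2 share may be split between them or left out by the counting. The setting for such reads is not given in the sources used here. Of the 50-base stretches of SAA1 transcripts 46.6% also occur in SAA2, and 17.9% of those of SAA2 occur in SAA1. Summed, SAA1 and SAA2 had a log2 fold change of 2.43. SAA1 took 194 of 266 reads of the pair in shBry (72.9%, exact 95% interval 67.2 to 78.2) and 40 of 47 in shNC (85.1%, 71.7 to 93.8). These intervals overlap. The read-through gene SAA2-SAA4 had 2, 5 and 5 reads in shBry and 0, 1 and 0 in shNC, and the liver-made SAA4 had 0 in every library.

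Among the protease inhibitors, SLPI (chr20:45252239-45254564, minus strand) was at 4.89, 5.85 and 4.16 CPM in shBry and 0.32, 0.331 and 0.50 CPM in shNC. The groups did not overlap, and the shNC values rest on 7, 7 and 10 reads. The means were 4.97 ± 0.847 and 0.384 ± 0.101 CPM (SD, n = 3), with a log2 fold change of 3.68 (SE 0.29) and a pooled ratio of 13.1 (exact 95% interval 8.65 to 20.7, for counting error only). PI3 (elafin, chr20:45174876-45176544, plus strand), in the same inhibitor gene cluster, had 3, 0 and 7 reads in shBry and 0, 2 and 1 in shNC. Its groups overlapped, and the pooled ratio of 3.24 had an exact 95% interval of 0.833 to 18.3, for counting error only.

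**Figure D1:**
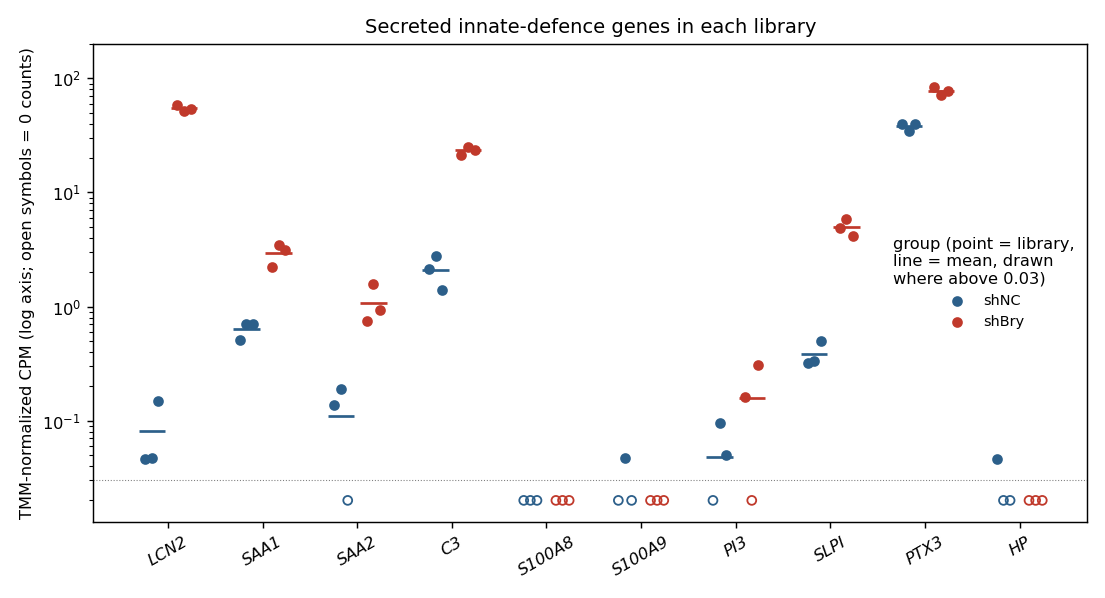
Normalised read count (TMM-normalised CPM, log axis) of the 10 genes in each library, with shNC in blue, shBry in red, a line for the group mean and open symbols for libraries with 0 reads. LCN2, SAA1, SAA2, C3, SLPI and PTX3 show separate groups, with PTX3 the only one above 30 CPM in shNC (34.6 to 40.1 CPM), whereas S100A8, S100A9, PI3 and HP sit at or near 0.

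The calprotectin genes and HP were at or near 0 reads. S100A8 (chr1:153390032-153391188, minus strand) had 0 reads in all 6 libraries, S100A9 (chr1:153357854-153361027, plus strand) had 1 read, in shNC replicate 2, and HP (haptoglobin, chr16:72054592-72061055, plus strand) had 1 read, in shNC replicate 1. A count of 0 allows up to 3 reads, which is 0.126 to 0.161 CPM in these libraries. HPR, the copy of HP beside it, also had 1 read in all. No fold change is given for S100A8, S100A9 or HP.

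By the fitted log2 fold change LCN2 ranked 1, SLPI 59, C3 76, SAA2 89, SAA1 218 and PTX3 1229 among the 15277 tested genes. Of the 6, LCN2, SAA2 and SLPI passed the filter on low counts only through the shBry libraries, so they had to differ if they were tested at all, while SAA1, C3 and PTX3 would have passed in either group. All 6 were past the call rule, beside 17.1% of all tested genes called higher, and nothing is read from this because the same contrast chose them. Within shBry the coefficient of variation was 6.29% for LCN2, 7.96% for C3 and 8.02% for PTX3. Read counting alone gives 2.91%, 4.42% and 2.44% for these. It was 17% for SLPI, 22.2% for SAA1 and 39.2% for SAA2, where read counting alone gives 9.62%, 12.4% and 20.4%. LCN2 and PTX3 were highest in shBry replicate 1, whereas C3, SAA1, SAA2 and SLPI were highest in shBry replicate 2.

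**Figure D2:**
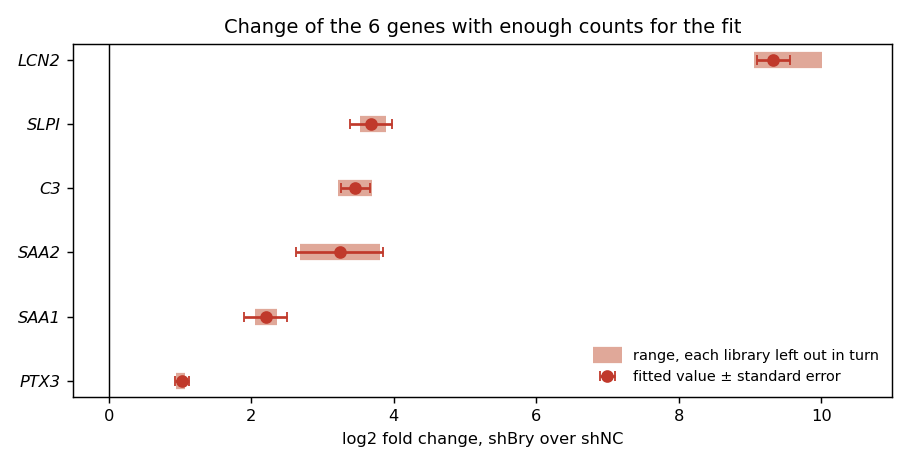
Log2 fold change of shBry over shNC for the 6 genes with enough reads, with the fitted value and its standard error (points and bars) and the range when each library is left out in turn (pale bands). LCN2 stands at 9.33 (9.05 to 10.01), SAA2 has the widest band (2.68 to 3.81) and PTX3 the narrowest (0.94 to 1.07).

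The make-up of the group also differed. Summed over the 10 genes, the level was 160 to 173 CPM in the shBry libraries and 38.8 to 43.0 CPM in the shNC libraries. PTX3 made up 91.7 ± 2.27% (SD, n = 3) of that sum in shNC and 45.0 to 48.9% in shBry. LCN2 went the other way, with 0.193 ± 0.136% in shNC and 33.2 ± 0.784% in shBry, and C3 had 5.15 ± 1.97% and 14.2 ± 1.67%. Compared per kilobase of exon within shBry, PTX3 was at 40.1 CPM and LCN2 at 34.4, followed by SLPI at 8.34, SAA1 at 3.69, C3 at 2.82 and SAA2 at 0.485. These lengths merge the exons of all annotated transcripts, 7 for LCN2, 18 for C3, 6 for SAA2, 4 for SAA1 and 1 each for PTX3 and SLPI. The order rests on this choice, and lengths of single transcripts were not tried.

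Other acute-phase genes were mostly silent in these cells. Of 19 listed, among them CRP and the fibrinogen genes, 10 had 0 reads in every library and 4 could be tested, of which 3 were higher in shBry and none lower (75% called, against 32.4% of all tested genes). The median log2 fold change of the 4 was 1.31, against 0.033 over all tested genes. SERPINA1 (alpha-1-antitrypsin, the inhibitor of neutrophil elastase) rose from 4.49, 4.77 and 3.45 CPM in shNC to 11.8, 10.6 and 11.8 in shBry, with a log2 fold change of 1.42 (SE 0.17, edgeR adjusted p = 6.27e-06). LRG1 (log2 fold change 1.21, edgeR adjusted p = 0.0339) and SERPINA3 (1.62, edgeR adjusted p = 0.0243) were also called higher, but on 5 to 21 and 1 to 18 reads a library. LRG1 and SERPINA3 passed the filter on low counts only through the shBry libraries, so they had to be higher there if tested. Nothing is therefore read from the 75% or the median of 1.31. The LRG1 call was lost when shBry replicate 1, shBry replicate 3, shNC replicate 1 or shNC replicate 2 was left out, the SERPINA3 call without shBry replicate 2, shNC replicate 1 or shNC replicate 3, both with DESeq2, and the LRG1 call also without the filter on low counts. The list had 1 or 2 calls when a library was left out. CP (ceruloplasmin), with too few reads for the fit, had 8, 9 and 16 in shBry and 0, 0 and 1 in shNC. Of its exon bases 19.4% are overlapped by a gene on the opposite strand.

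The complement list, C3 left out, held 37 genes, 15 of them at 0 reads. Of 12 tested, 5 were called higher and 2 lower (58.3% called, against 32.4% of all tested genes). The median log2 fold change was 0.58, against 0.033 over all tested genes. Some of these calls passed the filter on low counts through 1 group only or were lost with a library left out. Nothing is therefore read from the 58.3%. CD55 (decay-accelerating factor, which breaks up the C3 convertase on the cell surface) was at 83.0, 86.2 and 84.3 CPM in shBry and 23.5, 24 and 24.9 in shNC, a log2 change of 1.81 (SE 0.09, edgeR adjusted p = 1.07e-09). The other membrane regulators did not pass the call rule, with log2 fold changes of -0.55 for CD46, which helps to cut C3b, and 0.21 for CD59, which blocks the membrane attack complex. CD46 and CD59 missed only the fold limit (edgeR adjusted p = 0.00114 and 0.041). C1S, a protease of the classical pathway, rose by a log2 change of 1.36 (SE 0.20) and its relative C1RL by 1 (SE 0.13).

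C5AR1, the receptor for the C5a fragment, was at 1.94, 1.68 and 1.77 CPM in shBry and 0.137, 0.0472 and 0.25 CPM in shNC, on 3, 1 and 5 reads in the latter (log2 fold change 3.59, SE 0.45, edgeR adjusted p = 1.18e-05). CFP (properdin, which stabilises the C3 convertase) was called higher with a log2 fold change of 1.40, but leaving out shBry replicate 3 gave 0.76 and no call, and the call was also lost without shNC replicate 3. C5 (-0.80) and C3AR1 (-1.08, the C3a receptor) were called lower. As a group only shBry passed the filter on low counts for C5AR1 and CFP, and only shNC for C3AR1, so the filter favoured these directions. The C5 call was lost when shBry replicate 1, shBry replicate 3 (then -0.53), shNC replicate 2 or shNC replicate 3 was left out, and the C3AR1 call when shBry replicate 2 or shNC replicate 1 was left out and with DESeq2. CFB, C2, C4A and C4B lie in the stretch of chromosome 6 from GNL1 to RING1, where 86 of 118 coding genes are listed at 0, so their levels cannot be read from this table. The same holds for AGER, APOM and CDSN, which lie in that stretch and are counted in the receptor, lipocalin and keratinocyte lists.

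**Figure D3:**
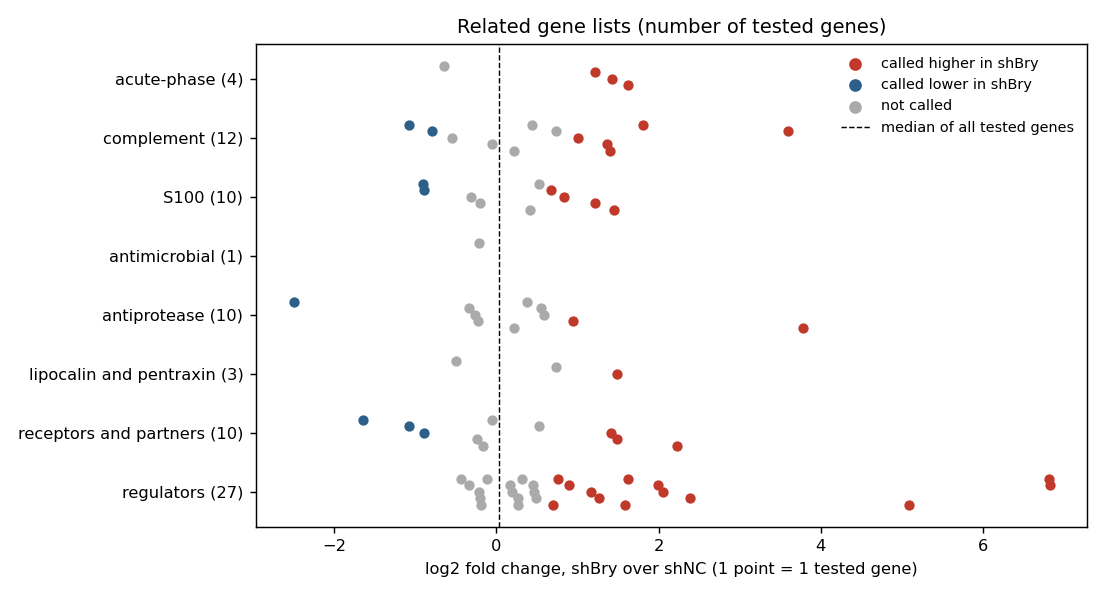
Log2 fold change (x axis) of every tested gene in the related gene lists (y axis, number tested in brackets), in red where called higher in shBry, blue where called lower and grey where not called, with a dashed line at the median of all tested genes (0.033). The regulators list has 13 red and no blue points, and complement, S100, antiprotease and receptor lists have both.

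Among the other S100 genes, 18 listed and 10 tested, 4 were called higher and 2 lower (60% called, against 32.4% of all tested genes). Their median log2 fold change was 0.47, against 0.033 over all tested genes. S100A2, found in epithelial cells, was at 93.1, 71.3 and 86.0 CPM in shBry and 32.0, 32.7 and 26.6 in shNC (log2 fold change 1.45, SE 0.12, edgeR adjusted p = 1.54e-07). S100A11 rose by 0.67 (SE 0.09) and S100A3 by 0.83 (SE 0.15) on the log2 scale, whereas S100A10, the annexin A2 partner, was at 217, 176 and 236 CPM in shBry and 399, 378 and 388 in shNC (-0.89, SE 0.10, edgeR adjusted p = 4.2e-06). S100A4, known for its link to metastasis, fell likewise (-0.90, SE 0.14). S100A14 was called at 5 to 18 reads a library (1.22), a call that was kept in 1 of 6 fits with a library left out (without shBry replicate 1) and was lost without any other library, with DESeq2, without the filter on low counts and in the fit with the replicate number as a block. S100A14 passed that filter only through the shBry libraries, so the filter favoured a rise.

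The S100 genes of chromosome 1 fall into blocks by position. S100A9, S100A12, S100A8, S100A7A and S100A7, from -32.2 to 67.7 kb relative to the start of S100A8, had 1 read in all libraries together. The stretch from S100A6 to S100A13, which holds the other tested S100A genes, begins at 144.6 kb, and the tested genes S100A10 and S100A11 lie at -1407.1 and -1357.5 kb.

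Other antimicrobial genes gave little signal. Of 24 listed, lysozyme, lactoferrin, cathelicidin and defensin genes among them, 14 had 0 reads in all libraries and only RNASE4 was tested, with a log2 fold change of -0.21 and no call (0 of 1 by edgeR, with 0 at an unadjusted p under 0.05 and 0 by DESeq2 and by limma-voom), and 72.6% of its exon bases are overlapped by other genes. Of 23 protease inhibitors other than SLPI and PI3, 10 were tested, with 2 called higher and 1 lower. That is 30% called, against 32.4% of all tested genes, with a median of 0.30 against 0.033. CST1 (cystatin SN) was at 0.377, 0.379 and 0.487 CPM in shBry and 3.20, 2.22 and 1.70 in shNC (log2 fold change -2.50, SE 0.35, edgeR adjusted p = 3.83e-05). WFDC3, of the whey acidic protein family that includes SLPI, rose by 0.94 (SE 0.21), and CSTA, cystatin A, by 3.78 (SE 0.52) from 1 to 2 reads a library in shNC. As a group only shBry passed the filter on low counts for CSTA and only shNC for CST1, so the filter favoured these directions. Among 18 other lipocalin and pentraxin genes 3 were tested (33.3% called, against 32.4% of all tested genes). PAEP, the lipocalin glycodelin, was called higher (1.49, SE 0.26, edgeR adjusted p = 0.000269).

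The receptors and partners of the 10 proteins moved both ways, with 3 of 10 tested genes called higher and 3 lower. That is 60% called, against 32.4% of all tested genes, with a median of -0.12 against 0.033. MMP9, the gelatinase that lipocalin 2 binds, was at 27.7, 26.9 and 27.9 CPM in shBry and 11, 9.87 and 8.66 in shNC (log2 fold change 1.48, SE 0.13, edgeR adjusted p = 3.08e-07), with 18.4% of its exon bases overlapped by an antisense gene. ITGAM and ITGB2, the chains of complement receptor 3, rose by 2.23 (SE 0.23, from 1 to 1.13 CPM in shNC to 4.25 to 5.49 in shBry) and 1.41 (SE 0.12). TLR4, a receptor reported for calprotectin, fell from 5.68 to 8.21 CPM in shNC to 3.01 to 4.29 in shBry (-0.89, SE 0.21, edgeR adjusted p = 0.00233). SLC22A17, the lipocalin 2 receptor, was called lower on 2 to 21 reads a library (-1.65), and the call was lost without shBry replicate 1, shBry replicate 3, shNC replicate 2 or shNC replicate 3, with -2.85 the lowest log2 fold change when a library was left out. As a group only shNC passed the filter on low counts for SLC22A17, so the filter favoured a fall.

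All called genes among the regulators of these proteins were higher in shBry. Of 28 listed genes 27 were tested, and 13 were called higher in shBry and none lower. That is 48.1% called, against 32.4% of all tested genes (17.1% higher and 15.2% lower). The median log2 fold change was 0.49, against 0.033 over all tested genes. The list was chosen with earlier results of these data known, so nothing is read from this share. The largest rises were those of the cytokines that drive the acute phase. IL6 was at 45.9, 45.9 and 54.6 CPM in shBry and 0.458, 0.472 and 0.35 in shNC, a log2 fold change of 6.81 (SE 0.18, edgeR adjusted p = 2.33e-12), with 20.7% of its exon bases overlapped by genes on the opposite strand. As a group only shBry passed the filter on low counts for IL6, so the filter favoured a rise. IL1A was at 297, 351 and 294 CPM against 2.11, 3.12 and 3.1 (6.82, SE 0.14), and IL1B, at 44.5, 41.2 and 48.2 CPM against 0.916, 1.75 and 1.25, had 5.09 (SE 0.18). All shBry values lay above all shNC values in these cytokine genes.

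Transcription factors of the C/EBP and NF-kappa-B families followed with smaller changes. CEBPB, an activator of acute-phase genes, was at 186, 165 and 208 CPM in shBry and 63.1, 64.3 and 58.0 in shNC (log2 fold change 1.59, SE 0.10, edgeR adjusted p = 9.32e-09). NFKBIZ, the nuclear co-factor needed for LCN2 induction in many cells, was at 42.9, 47.7 and 41.3 CPM against 7.51, 9.16 and 8.71 (2.38, SE 0.12, edgeR adjusted p = 2.06e-09). RELB (2.05), CEBPG (1.99), NFKB2 (1.62) and CEBPD (1.26) were also called higher. So were IL6ST (1.16), NFKBIA (0.90) and SOCS3 (0.76), which are not transcription factors. REL (0.70) was called as well, with 43.3% of its exon bases overlapped, but its call was lost without shBry replicate 2, shNC replicate 1 or shNC replicate 2.

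**Figure D4:**
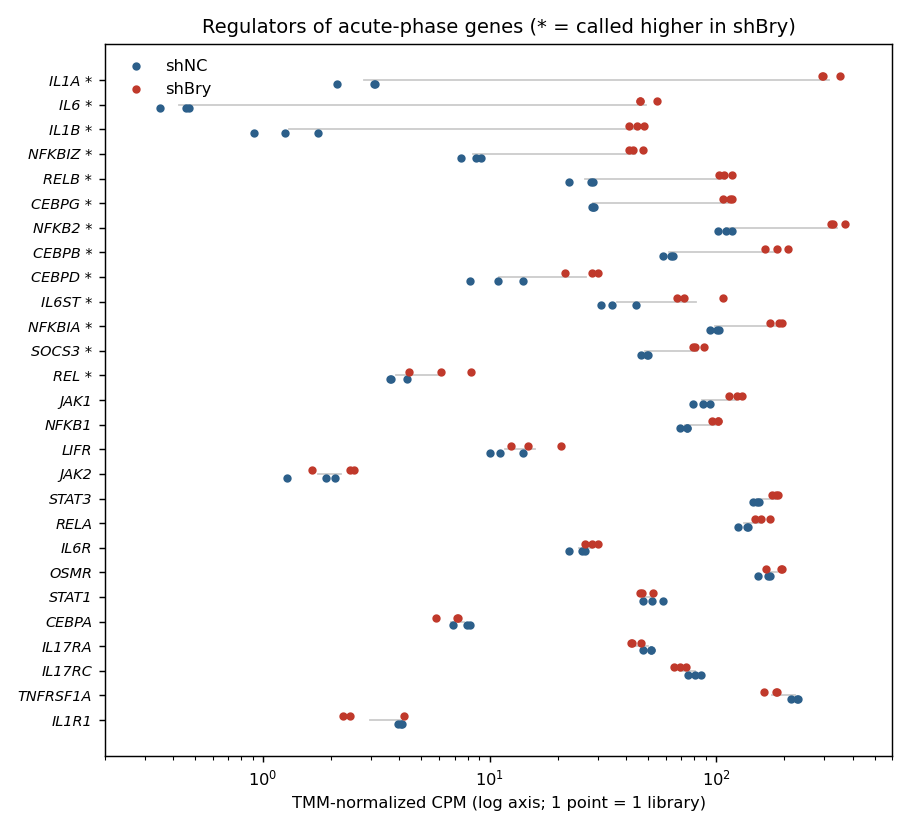
TMM-normalised CPM (log axis) of the tested regulators in each library, with shNC in blue, shBry in red and an asterisk where the gene was called higher in shBry. IL6, IL1A and IL1B show the widest gaps, and STAT3, RELA and NFKB1 lie close together without overlap.

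STAT3, which carries the signal of interleukin 6, did not pass the call rule, with 0.27 (SE 0.08) on the log2 scale, and neither did RELA (0.26), NFKB1 (0.46), JAK1 (0.49) or CEBPA (-0.19). STAT3, RELA, NFKB1 and JAK1 missed only the fold limit, with edgeR adjusted p from 0.000265 (NFKB1) to 0.0192 (RELA), whereas CEBPA had 0.348. OSM had 1 read in all. The receptors IL6R (0.19), OSMR (0.17), IL1R1 (-0.44), IL17RA (-0.20), IL17RC (-0.22) and TNFRSF1A (-0.34) were not called either. Of these receptors IL17RC and TNFRSF1A missed only the fold limit (edgeR adjusted p = 0.0491 and 0.00292). How the regulators' levels bear on the levels of the 10 genes was not tested.

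The genes within 100 kb of the 10 genes were called at about the rate of all genes. Of 55 neighbours 22 were tested, 5 called higher and 3 lower (36.4% called, against 32.4% of all tested genes, median 0.17). Beside LCN2, SLC25A25 rose by 1.89 (edgeR adjusted p = 7.08e-09) and DNM1, dynamin 1, fell by 1.78 on the log2 scale (edgeR adjusted p = 1.07e-08). SDC4, syndecan 4, near SLPI, rose by 1.01, TXNL4B, which overlaps HP, by 0.93, GPR108, which overlaps C3, by 0.83, and PQLC2L near PTX3 by 0.89, while DHX38 (-0.75) and PMFBP1 (-1.64), both near HP, fell. As a group only shNC passed the filter on low counts for PMFBP1, so the filter favoured a fall. No tested neighbour of SAA1, SAA2 or PI3 was called, and no neighbour of S100A8 or S100A9 was tested.

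**Figure D5:**
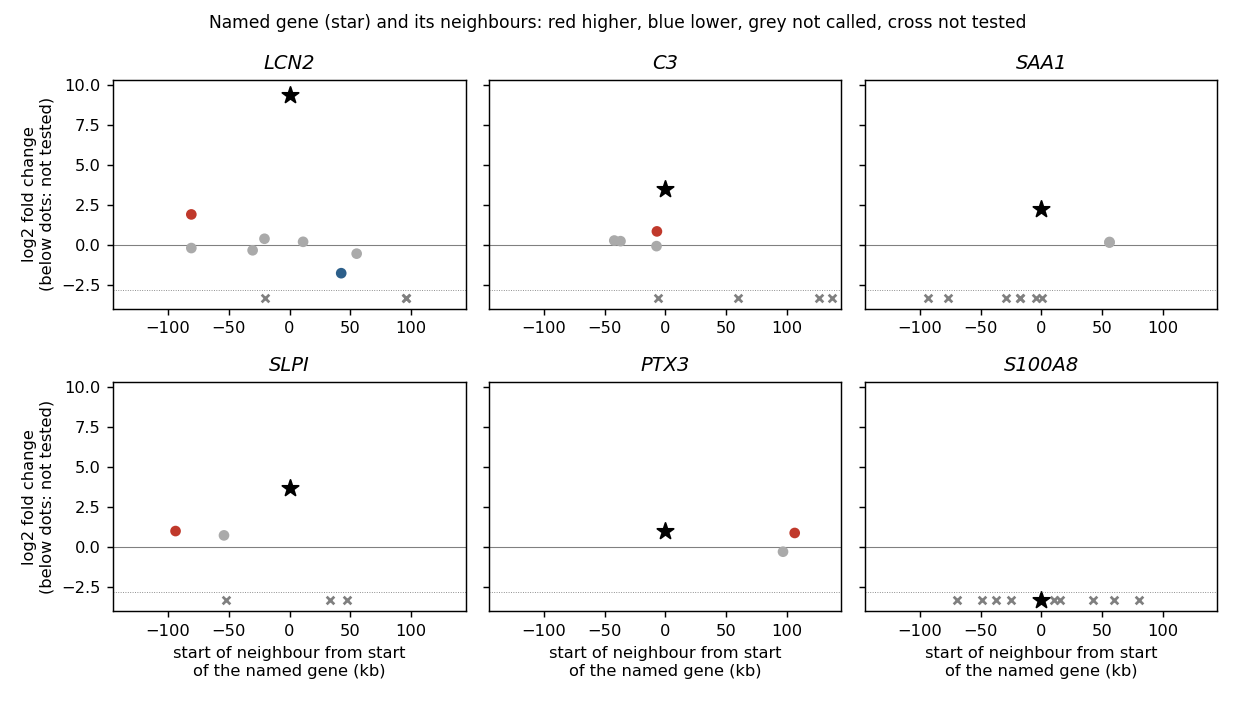
Log2 fold change (y axis) of 6 of the genes (stars) and of their neighbours, placed by the distance between start sites in kb (x axis), in red where called higher in shBry, blue where lower, grey where not called, with crosses below the dotted line where not tested. LCN2 stands at 9.33 above neighbours between -1.78 and 1.89, and S100A8 has 0 reads in a stretch without tested genes.

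In the profile over the 6 libraries, by root mean square distance of log2(CPM + 0.5) values centred on their own mean, the tested genes nearest to LCN2 were IL1A (0.185) and CSF2 (0.220). Nearest to C3 were TNFSF15 (0.182) and LIF (0.203), and nearest to PTX3 were ORAOV1 and C12orf42 (0.057 each), the latter at 0.674 CPM in shBry and 0.0639 in shNC, on 0 to 16 reads a library. The log2 fold change of C12orf42 was 3.28 against 1.03 for PTX3, so the small distance, taken after 0.5 CPM was added to values near that level, is no likeness in fold change. LCN2 in shNC, at a mean of 0.081 CPM, also lay below the added 0.5 CPM. Its log2 fold change was 9.33 against 6.82 for IL1A and 7.21 for CSF2, so these distances are no likeness in fold change either. The libraries are shared by all these values, and the distances describe likeness only.

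Markers of other cells that make these proteins were also counted, since in bulk RNA fewer cells of a type and less RNA per cell cannot be told apart. Of 12 neutrophil markers 7 were at 0 in all libraries, among them MPO, AZU1, CTSG, CEACAM8 and FCGR3B, none was tested, and the sum was 0.177 to 0.753 CPM in shBry and 0 to 0.331 in shNC. Of 11 leukocyte markers PTPRC and TYROBP were at 0, CORO1A (-0.75) and CD14 (-1.26) were called lower, and the sum was 10.1 to 12 CPM in shBry and 16.4 to 20.2 in shNC. Of 11 hepatocyte markers 4 were at 0, ALB, TTR and APOH among them, 0 of 3 tested were called (by edgeR, DESeq2 and limma-voom, with 0 at an unadjusted p under 0.05), and the sum was 8.81 to 10.4 CPM and 6.85 to 8.70. Of 15 keratinocyte markers 10 were at 0, with KRT5, KRT14 and FLG among them and also CDSN, whose level cannot be read here, KRT10 was called higher (0.89), and the sum was 19.6 to 24.1 CPM and 10.1 to 13.4. The part of these marker differences in the results above was not tested.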

How the data were processed

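Sequencing on an Illumina instrument and read counting were done by the authors, whose deposited table holds raw counts per gene symbol, with HISAT2 2.0.4, HTSeq and the GRCh38 build named in the submitters' processing notes. The annotation and strand setting are not given in the sources used here, so overlapping genes and near-identical copies were listed from GENCODE 29. The series' design text names pericardial RNA, while the sample labels and the methods give MDA-MB-231.

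From these counts, 6 libraries (3 shBry, 3 shNC, groups from the labels) were fitted with edgeR 4.0.16 in R 4.3.3 (filterByExpr with a minimum count of 10, TMM normalisation, quasi-likelihood test, Benjamini-Hochberg adjustment over 15277 genes). A gene was called when the change exceeded 1.5 times at an adjusted p under 0.05. CPM are TMM-normalised. DESeq2 1.42.0, limma-voom (limma 3.58.1), other filters, scalings and fold limits and leaving out each library were tried. The fit was tested on simulated counts.

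The 10 genes and the lists were chosen with earlier results of these data known, the lists from general knowledge. Named from each list and from the neighbours were up to 3 called genes with the largest rise and up to 3 with the largest fall (mean of at least 1 CPM, groups not overlapping), all called regulators, and the 2 profiles nearest to each member above 10 CPM. LRG1, SERPINA3, C1RL, C5AR1, C3AR1, S100A14, CSTA, SLC22A17, GPR108, PQLC2L and PMFBP1, and the genes given without a call, were named after their values were seen.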

Additional observations from a re-analysis of the deposited data

How the results depend on the processing

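Of the counts of calls, 149 of 165 comparisons between alternatives stayed within 1.5 times the value in the text, 9 of 71 fold changes of the members moved by more than the spread between replicates, 34 of 542 comparisons of called list genes lost the call, and none of these fold changes changed sign. Over all genes, 4945 calls became 2297 with a fold limit of 2 and 8139 without one, and 4587 to 5025 with a library left out. Members past the call rule were 3 with at least 10 counts required in every library, since LCN2, SAA2 and SLPI then drop out, and 6 with any library left out. Acute-phase calls (3) were 1 with DESeq2, 1 with at least 10 counts in every library and 1 to 2 with a library left out. Antiprotease calls (3) were 1 with at least 10 counts in every library and 8 without a fold limit. Lipocalin and pentraxin calls (1) were 2 without the expression filter, 2 without a fold limit and 1 to 2 with a library left out. A fold limit of 2 left 2 S100 and 4 neighbour calls. The replicate block gave 4914 calls over all genes, 6 members and 5 S100 genes. Deviations of same-numbered libraries correlated at 0.25, -0.13 and -0.05, and those of differently numbered ones at -0.3 to 0.31. With so few libraries these values cannot show whether same-numbered libraries share a batch, and the labels give only a number. Without TMM or with DESeq2's scaling the median log2 fold change was 0.017 or 0.013 instead of 0.033. Depth limits S100A8, S100A9, HP and PI3, where 3 reads correspond to 0.126 to 0.161 CPM. The cause of these shifts was not tested, except where fewer genes were tested or the limit itself moved.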
